A study of Mus musculus with 5 samples.

Results

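Endothelium lines the blood vessels and carries the proteins that keep blood fluid. Here 8 genes of blood coagulation and its control (Thbd, Procr, Tfpi, F3, Plat, Vwf, F8 and Anxa2) were followed through the endothelial cells of the fetal mouse lung. They were taken by gene symbol from the 32285 genes of the single-cell count matrices, and each symbol was found in all 5 libraries. The genes were chosen by measured values, namely their level per endothelial type and their Het against KO difference in these libraries. Those values are therefore given as a description with no test, and tests are kept for the other lineages and for other genes of the same pathways. The lists of those other genes were also chosen with earlier results of these data known.

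The libraries came from dissociated whole lungs at stage E18.5, with 1 library per embryo made with a droplet kit that counts 3′ ends. Per the labels, 2 embryos carried 1 lost copy of Zswim8 (Zswim8+/-, Het1 and Het2) and 3 carried none intact (Zswim8-/-, KO1, KO2 and KO3); no wild-type lung was among them, and how the allele was made is not given in the sources used here. Zswim8 encodes a receptor of a ubiquitin ligase that drives the decay of certain microRNAs. Its transcripts were not lower in the libraries labelled KO (38.3, 39.1 and 41.0 per 1000000 UMIs) than in the Het libraries (36.4 and 38.7), and 3′ counts check nothing about a deletion elsewhere in the gene. Xist and Y-linked counts put KO1 and KO2 as female and the other 3 libraries as male, so sex is in part confounded with genotype.

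Clotting starts when tissue factor (F3), kept outside the vessel, meets factor VII, and it ends in thrombin and fibrin. Thrombomodulin (Thbd) binds thrombin on the endothelial surface and turns it into an activator of protein C, which the endothelial protein C receptor (Procr) presents. Tissue factor pathway inhibitor (Tfpi) blocks the first step. Von Willebrand factor (Vwf) tethers platelets and carries factor VIII (F8), a cofactor that endothelial cells, those of lymph vessels included, are known to make. Tissue plasminogen activator (Plat) turns plasminogen into plasmin, and annexin A2 (Anxa2) holds both at the cell surface.

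The best known microRNAs under the control of Zswim8 in mouse tissue are miR-322 and miR-503, members of the miR-15/16 seed family, which pair with 3′ UTRs through the bases near their 5′ end. They are shown because pairing with that seed is the usual way for this family to meet a transcript. Their levels were not measured here. Sequences are from RefSeq (GRCm38.p6), 5′ to 3′, with the seed (bases 2 to 8) in capitals. Both genes lie on the minus strand of chromosome X (53054306 to 53054327 and 53054027 to 53054049).
mmu-miR-322-5p: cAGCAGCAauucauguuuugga
mmu-miR-503-5p: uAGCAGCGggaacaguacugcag
Bases 2 to 7 are the same in both, and pair with GCTGCT. In the longest annotated 3′ UTR of each gene, these letters stood in 8069 of 20869 genes (38.7%), and among the members in Thbd and in Tfpi. Each of these sites also pairs with base 8 of miR-322 (TGCTGCT, found in 20.4% of the 3′ UTRs). The sites are printed with GCTGCT in capitals, read from GENCODE M21 transcripts (GRCm38, minus strand).
Thbd, chr2:148405914-148405937: cctcctagtGCTGCTgatctgtag
Thbd, chr2:148405125-148405148: aagcaatgtGCTGCTgagggaaac
Tfpi, chr2:84440399-84440422: aaggtacttGCTGCTaagtcttcc
Procr, F3, Plat, Vwf, F8 and Anxa2 held no such letters in that window. For Vwf the window belonged to an annotated transcript of 10 exons, and its other transcripts were not searched. A match is a description of the sequence, not a shown target site. Sites outside that window and sites without these letters were not searched.

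The libraries held 56608582 to 93708304 UMIs, and 3051 to 4634 cells each were kept. Of these, 421 and 289 cells of the Het and 273, 285 and 287 cells of the KO libraries were endothelial by their markers, with 3212210 to 4880010 UMIs per library. Sub-clusters were named from markers, written X-like. General capillary-like cells, marked by Gpihbp1, were the most frequent, at 212, 148, 135, 156 and 148 cells for Het1, Het2, KO1, KO2 and KO3. Aerocyte-like cells, the thin capillary cells of the gas exchange surface marked by Car4 and Ednrb, numbered 88 and 52 in the Het libraries and 2, 2 and 5 in the KO libraries. Arterial-like cells numbered 26 to 56 per library, venous-like 14 to 25, cycling endothelial 35 to 47 and lymphatic-like 9 and 6 (Het) against 31, 20 and 29 (KO). Levels are counts of the gene's UMIs per 1000000 UMIs of the summed cells (CPM), given for a library with at least 10 cells of the type. Red-cell barcodes, which should lack these transcripts, gave the level of free RNA. Other lineages' markers also differed in the endothelial sums. The 6 AT1 markers (alveolar flat cells) summed to 284 to 296 CPM in the Het and 38.2 to 62.2 CPM in the KO libraries, with all 6 higher in the Het. The 5 neutrophil markers summed to 121 to 145 against 37.5 to 49.8 CPM, the 6 platelet markers to 67.1 to 67.6 against 18.6 to 46.3 CPM and the 7 erythroid markers to 13107 to 23124 against 7384 to 12694 CPM. The 8 markers of the endothelial lineage itself summed to 7937 to 8238 against 5716 to 6090 CPM, with 7 of 8 higher in the Het. Their part in the results below was not tested.

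**Figure D1:**
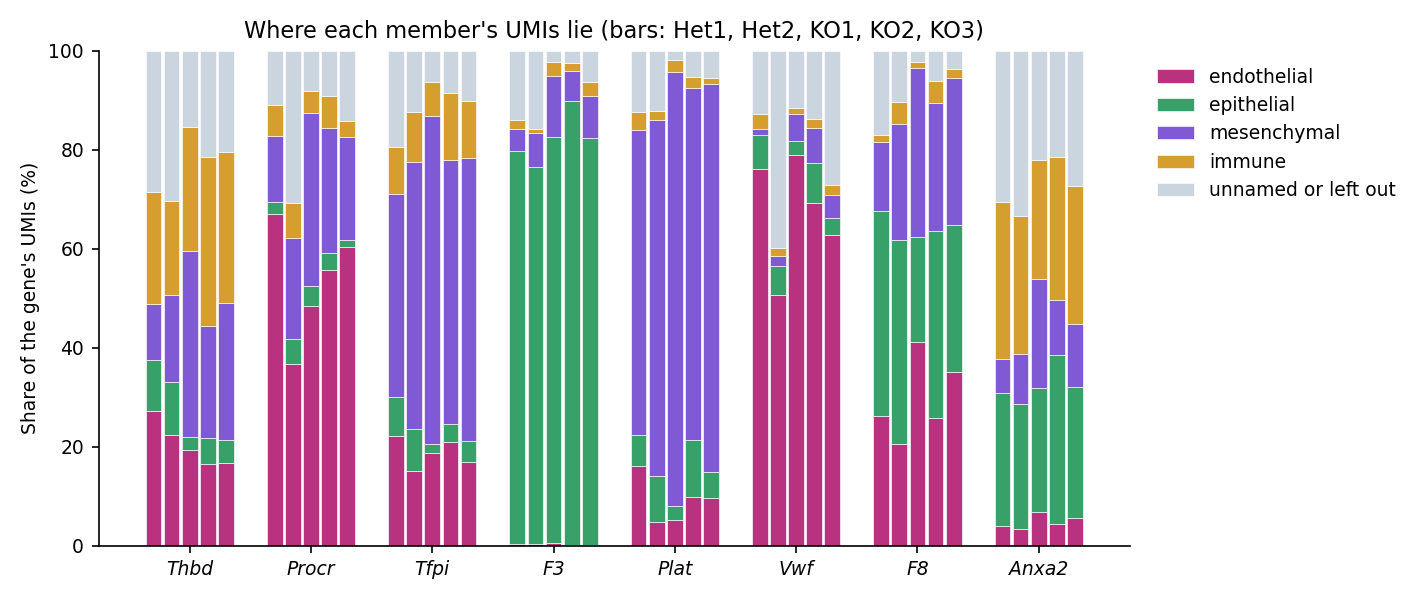
Share of each gene's UMIs, in percent of all its UMIs in kept cells, that lay in each lineage, with 1 bar per library in the order Het1, Het2, KO1, KO2, KO3. Vwf lay mostly in endothelium, F3 mostly in epithelium and Plat mostly in mesenchyme, in all 5 libraries.

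Where the members' transcripts lay differed by gene. Endothelial cells held 50.7 to 78.9% of the Vwf UMIs of a library, although they were a small minority of the cells. They held 16.6 to 27.2% of those of Thbd, which also lay in mesenchymal (11.4 to 37.6%) and immune cells (18.9 to 34.3%). Epithelial cells held 76.3 to 89.7% of the F3 UMIs and endothelial cells 0.093 to 0.548%. Mesenchymal cells held 61.5 to 87.7% of the Plat UMIs.

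Thrombomodulin (ENSMUSG00000074743, GRCm38 chromosome 2, 148404466 to 148408188, minus strand, a gene of 1 exon) was highest in aerocyte-like cells and lower in the KO libraries in each of the 4 types with a level in all 5 libraries. In aerocyte-like cells of the Het lungs Thbd stood at 712 and 789 CPM. The 9 KO aerocyte-like cells gave 35 UMIs in all, or 572 CPM (95% exact Poisson interval 399 to 796, counting error only), with no value per library. In general capillary-like cells Thbd was 288 and 320 CPM in the Het and 129, 85.0 and 131 CPM in the KO libraries. The groups did not overlap, and the log2 fold change (KO over Het, from edgeR's fit over all genes) was -1.38 (SE 0.14).

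The same order was seen in the other types with both groups. Venous-like cells had 288 and 420 CPM of Thbd in the Het against 168, 129 and 186 CPM in the KO libraries. Cycling endothelial cells had 246 and 341 CPM against 81.7, 87.0 and 152 CPM. Arterial-like cells were lower than these in the Het lungs, at 110 and 152 CPM, against 95.7, 66.4 and 78.6 CPM in the KO. In all 3 of these types every Het library lay above every KO library. Lymphatic-like cells had 44.8, 33.9 and 40.6 CPM in the KO libraries, and the 15 Het cells gave 42.1 CPM (95% Poisson interval 25.7 to 65.0), a difference not detectable at this depth. In the Het order, aerocyte-like cells stood apart from the next type, while the ranges of venous-like, general capillary-like and cycling cells overlapped.

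**Figure D2:**
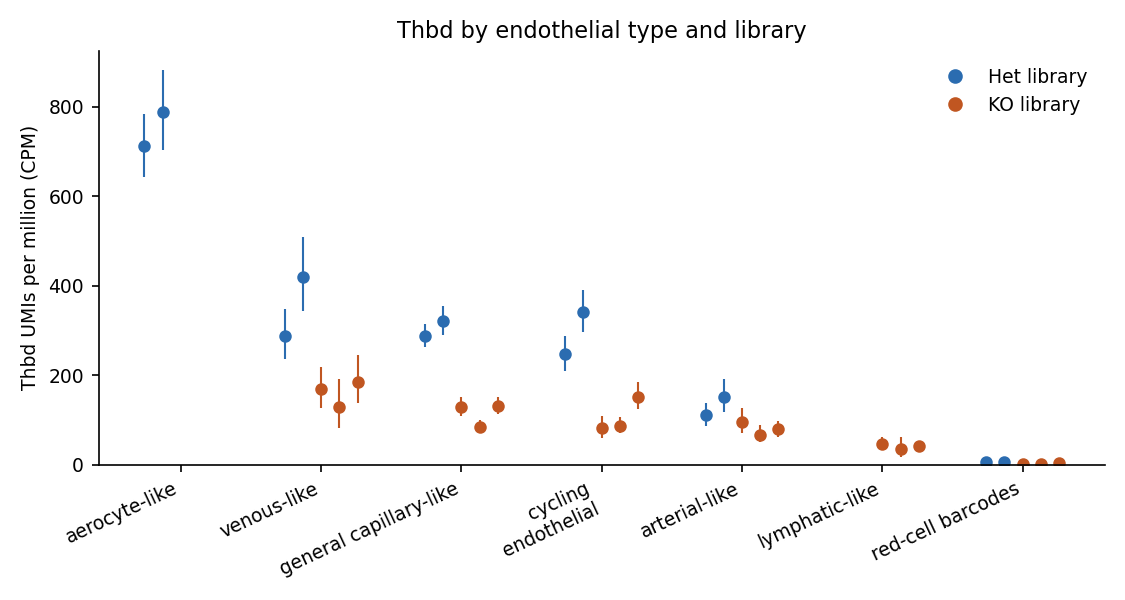
Thbd level in CPM (linear axis from 0) by endothelial type, 1 point per library with its 95% exact Poisson interval, Het in blue and KO in orange; types with fewer than 10 cells in a library have no point. The Het points lie above the KO points in general capillary-like, venous-like, cycling and arterial-like cells, and red-cell barcodes lie near 0.

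Over all endothelial cells Thbd stood at 300 and 338 CPM in the Het and 102, 82.8 and 103 CPM in the KO libraries (log2 fold change -1.72, SE 0.11). Without the aerocyte-like cells, which were nearly all from Het lungs, it stood at 233 and 275 against 99.2, 79.8 and 101 CPM (log2 fold change -1.41). Among the male libraries alone (Het1, Het2 and KO3) the value was -1.61. The general capillary-like class was itself made of different sub-clusters in the 2 groups. A sub-cluster led by Rgs2, Prr18 and Tcim held 122 and 83 Het cells and 45, 39 and 58 KO cells, and one led by Samsn1, Fabp4 and Stab2, with the interferon-related gene Irf1, held 23 and 14 Het cells and 74, 86 and 69 KO cells. Another sub-cluster, led by Acsl4 and the interferon-related Irf7, held 46 and 39 Het cells and 5, 6 and 8 KO cells. Within the Rgs2-led sub-cluster Thbd was 372 and 372 CPM in the Het and 191, 119 and 189 CPM in the KO libraries. Within the Samsn1-led sub-cluster it was 170 and 141 CPM against 111, 81.8 and 101 CPM. The groups did not overlap in either sub-cluster. Markers of other cells moved with this result within the general capillary-like sums. The 7 aerocyte markers summed to 257 to 266 CPM in the Het and 159 to 185 CPM in the KO libraries. Of these 7, 5 were higher in the Het and Rprml was at 0. Car4 had 53.6 and 38.8 against 3.47, 5.32 and 8.29 CPM, while Ednrb overlapped (99.2 and 115 against 125, 94.5 and 119 CPM). The 8 arterial markers summed to 702 to 709 against 401 to 448 CPM, and the 5 neutrophil markers to 149 to 164 against 47.8 to 58.7 CPM. The 7 erythroid markers summed to 21723 to 29885 against 10942 to 12449 CPM, and the 7 cycling markers were higher in the KO libraries (96.1 to 97.7 against 133 to 139 CPM). Their part in the Thbd values was not tested.

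The same order was seen at equal depth. With each cell thinned to 3000 UMIs, which kept 203 and 138 Het and 123, 154 and 140 KO cells, 51.2 and 50.7% of the Het and 26.0, 22.1 and 30.7% of the KO general capillary-like cells had a Thbd UMI. Before thinning the shares were 74.7% over the Het and 51.9% over the KO cells, at median depths of 6982 and 8573 UMIs. Neutrophil-like cells, which should lack the gene, had 2.74 and 2.67% in the Het and 0, 5.88 and 4.0% in the KO libraries after the same thinning. Red-cell barcodes had 5.48 and 5.44 CPM of Thbd in the Het and 0.541, 2.14 and 2.75 CPM in the KO libraries, far below the endothelial levels.

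Procr, the protein C receptor (ENSMUSG00000027611, chromosome 2, 155751117 to 155755471, plus strand), was a gene of veins. Venous-like cells had 590 and 400 CPM in the Het and 288, 263 and 576 CPM in the KO libraries, with overlapping groups. Arterial-like cells followed at 52.4 and 75.8 CPM (Het) and 86.1, 82.1 and 63.0 CPM (KO). No Procr UMI was found in the 140 aerocyte-like cells of the Het lungs, which allows up to 3.84 CPM (upper 95% Poisson bound). In the Het lungs Thbd and Procr, partners in the activation of protein C, were thus highest in different types. Among the types with a level in the KO libraries, venous-like cells had the highest mean of both (Thbd 161 CPM, Procr 376 CPM).

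In general capillary-like cells Procr went the opposite way to Thbd. It was 19.1 and 13.5 CPM in the Het and 33.9, 31.9 and 41.5 CPM in the KO libraries, with no overlap (log2 fold change 1.13, SE 0.24). These are 16 to 65 UMIs per library. Within the Rgs2-led sub-cluster it was 9.17 and 16.6 CPM against 41.5, 19.9 and 33.9 CPM. Within the Samsn1-led sub-cluster the groups overlapped (49.6 and 0 against 31.4, 38 and 50.5 CPM). Cycling endothelial cells had 13.9 and 18.1 CPM in the Het and 18.3, 41.5 and 56.3 CPM in the KO libraries. Over all endothelial cells the groups overlapped (75.2 and 54.8 against 69.8, 53.8 and 84.0 CPM).

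**Figure D3:**
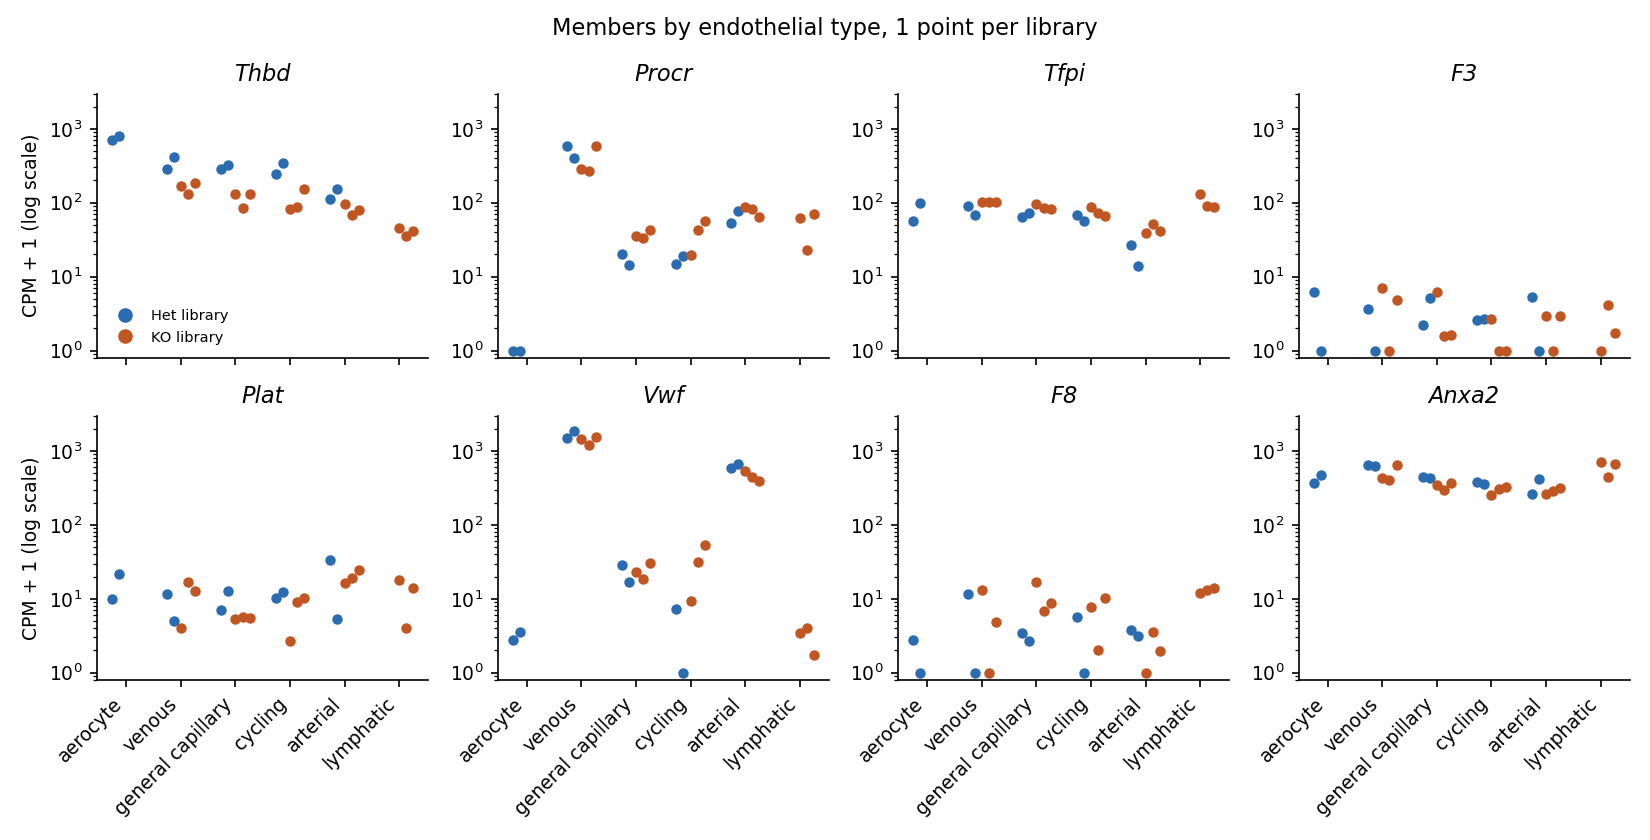
Level of each of the 8 genes as CPM + 1 on a log axis, by endothelial type, 1 point per library (Het blue, KO orange); a point at 1 is a library with no UMI. Procr and Vwf peak in venous-like cells, Thbd in the aerocyte-like cells of the Het libraries, and F3 stays under 10 in all types.

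Tfpi (ENSMUSG00000027082, chromosome 2, 84432855 to 84476775, minus strand) was spread over the types at a narrow range of levels, with arterial-like cells the lowest. These had 25.5 and 13 CPM in the Het and 38.3, 50.8 and 39.8 CPM in the KO libraries. General capillary-like cells had 63.4 and 70.8 CPM (Het) and 94.7, 82.7 and 81.7 CPM (KO), and venous-like cells 89.9 and 68.0 CPM against 101, 102 and 101 CPM. In each of these 3 types, and over all endothelial cells (61.0 and 61.3 against 93.7, 75.2 and 72.3 CPM), every KO library lay above both Het libraries. Split by sub-cluster, the general capillary-like groups overlapped in the Samsn1-led one (74.4 and 60.6 against 99.8, 77.0 and 73.2 CPM). In the Rgs2-led one they did not (60.2 and 84.7 against 98.9, 85.3 and 102 CPM). In cycling endothelial cells the groups overlapped (66.6 and 56.1 against 86.7, 71.8 and 65.4 CPM). Lymphatic-like cells of the KO libraries had 130, 89.3 and 85.7 CPM. The endothelial log2 fold change was 0.41 (SE 0.13). Its ordering of types at the top is loose, since the ranges of venous-like, aerocyte-like, general capillary-like and cycling cells overlapped in the Het lungs.

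F3, tissue factor (ENSMUSG00000028128, chromosome 3, 121723537 to 121735048, plus strand), was near the level of free RNA in endothelium. The endothelial sums held 10, 9, 10, 2 and 5 F3 UMIs in Het1, Het2, KO1, KO2 and KO3, or 0.503 to 2.91 CPM. Red-cell barcodes had 4.03 to 7.22 CPM in the same libraries. The level in endothelium is thus read as background. Outside the vessels F3 was plain to see. AT1-like cells, the flat cells of the air side, had 247 and 255 CPM in the Het and 208, 160 and 225 CPM in the KO libraries, and mesothelial-like cells, which cover the lung, had 52.4 and 43.9 against 48.4, 46.7 and 37.6 CPM.

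Plat (ENSMUSG00000031538, chromosome 8, 22757727 to 22782844, plus strand) was low in endothelium. It had 11.8 and 9.96 CPM in the Het and 8.43, 8.81 and 11.7 CPM in the KO endothelial sums, with overlapping groups. Red-cell barcodes had 0.23 to 0.722 CPM. Arterial-like cells had 32.6 and 4.33 CPM against 15.3, 18.2 and 23.3 CPM, so the 2 Het libraries enclosed all 3 KO libraries. Pericyte-like cells, the mural cells of capillaries, had 123 and 76.1 CPM in the Het and 76.7, 57.6 and 67.0 CPM in the KO libraries.

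Anxa2 (ENSMUSG00000032231, chromosome 9, 69453620 to 69491795, plus strand, where it overlaps the antisense gene Gm16144) was broad. Venous-like cells had 637 and 632 CPM in the Het and 431, 408 and 638 CPM in the KO libraries, and lymphatic-like cells of the KO libraries 710, 450 and 665 CPM. General capillary-like cells had 447 and 431 CPM (Het) and 348, 296 and 369 CPM (KO), with no overlap (log2 fold change -0.35, SE 0.11). Over all endothelial cells the groups overlapped (418 and 472 against 413, 315 and 446 CPM). Within the Rgs2-led sub-cluster they overlapped too (411 and 394 against 341, 407 and 364 CPM), and within the Samsn1-led sub-cluster they did not (525 and 471 against 345, 266 and 361 CPM).

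Vwf (ENSMUSG00000001930, chromosome 6, 125546774 to 125686679, plus strand) separated large vessels from capillaries. Venous-like cells had 1502 and 1881 CPM in the Het and 1438, 1215 and 1558 CPM in the KO libraries. Arterial-like cells had 593 and 665 CPM against 528, 440 and 395 CPM, where every Het library lay above every KO library. Cycling endothelial cells went the other way with no overlap, at 6.20 and 0 CPM in the Het and 8.34, 30.3 and 53.2 CPM in the KO libraries (4, 0, 5, 30 and 35 UMIs). General capillary-like cells had 27.7 and 16.0 CPM against 21.7, 17.7 and 29.98 CPM. The Het aerocyte-like cells had 1.76 and 2.54 CPM, 1 UMI in each library, close to the 2.04 and 0.995 CPM of red-cell barcodes. Lymphatic-like cells of the KO libraries had 0.752 to 3.08 CPM.

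Over all endothelial cells Vwf was 254 and 248 CPM in the Het and 226, 157 and 183 CPM in the KO libraries (log2 fold change -0.40, SE 0.13), with no overlap. A cell is called mixed here when 3 or more markers of a foreign lineage were detected in it. With mixed cells left out the value was -0.01, and with the aerocyte-like cells left out it was -0.58.

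F8 (ENSMUSG00000031196, chromosome X, 75172715 to 75382615, minus strand, overlapping Fundc2 on the other strand) rested on few UMIs. The endothelial sums held 17, 14, 35, 17 and 38 UMIs, or 4.17 and 4.36 CPM in the Het and 10.2, 4.28 and 7.79 CPM in the KO libraries. Lymphatic-like cells of the KO libraries were the most even, at 10.9, 12.3 and 12.8 CPM, and the 15 Het cells held 14 UMIs (29.5 CPM, 95% Poisson interval 16.1 to 49.5). General capillary-like cells had 2.46 and 1.69 CPM in the Het, which is 4 and 2 UMIs, and 15.6, 5.91 and 7.65 CPM in the KO libraries. F8 is X-linked and the library with the highest value, KO1, was female; the male KO3 stood at 7.65 CPM. Red-cell barcodes had 0 to 0.249 CPM.

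**Figure D4:**
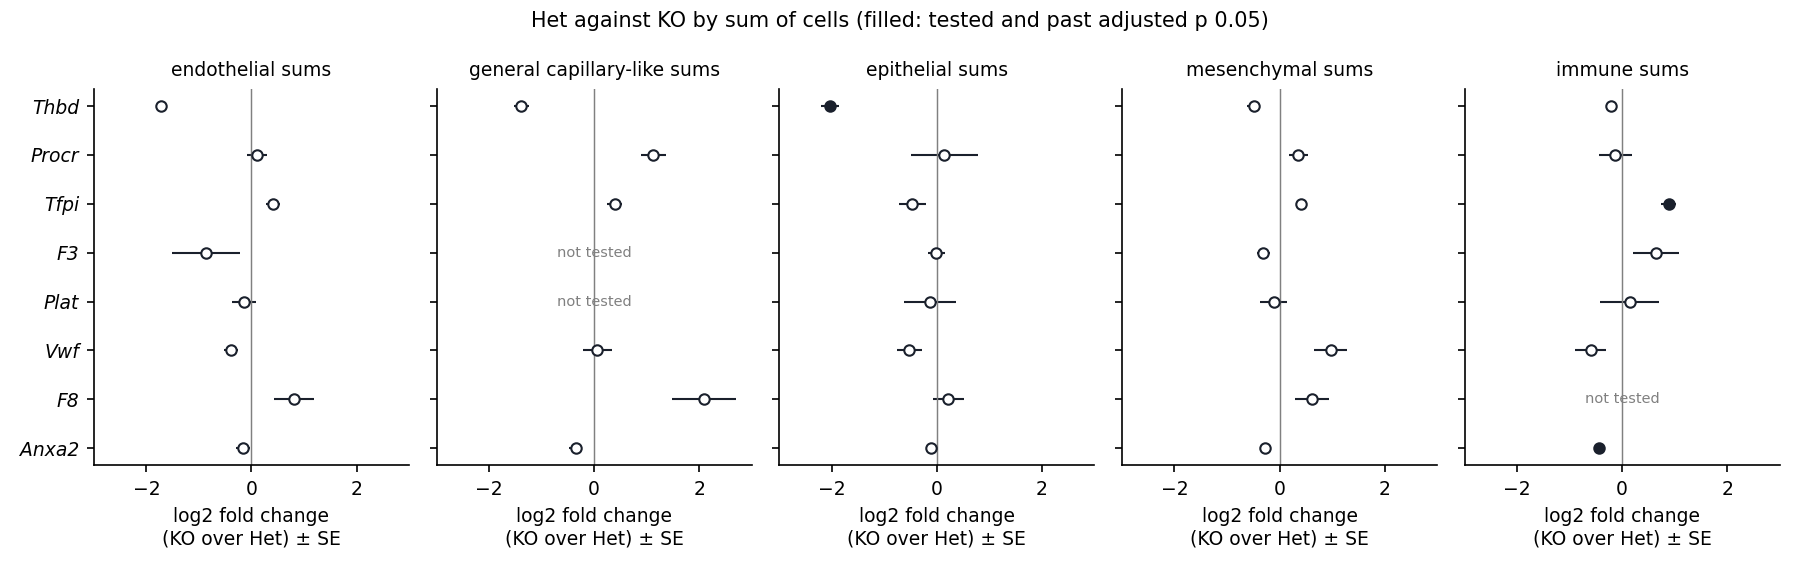
Log2 fold change, KO over Het, of each gene in 5 sums of cells, with its SE from edgeR; filled points passed adjusted p 0.05 in the sums where a test was made (epithelial, mesenchymal, immune), and the 2 endothelial panels carry no test. Thbd is the lowest point in both endothelial panels.

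As counts, 1 of the 8 members was past an adjusted p of 0.05 in the endothelial sums, where 5.78% of 11518 genes were, and 3 of 8 had groups that did not overlap, where 39.1% of genes did. In the general capillary-like sums 6 members were measured well enough to enter the fit (F3 and Plat were not), and 2 of them were past the threshold, against 4.18% of all genes. There 5 of the 6 had groups that did not overlap, against 33.2% of genes. The members' median log2 fold change was -0.16 in the endothelial sums, beside 0.00326 over all genes tested, and 0.22 beside 0.00351 in the general capillary-like sums. The rule chose the members with these contrasts in view, so nothing is read from these counts.

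In the lineages that the choice of members did not use, Thbd was called lower in the epithelial sums, but not without mixed cells. Tfpi was called higher and Anxa2 lower in the immune sums. Thbd stood at 25.2 and 31.6 CPM in the Het and 5.44, 6.75 and 8.39 CPM in the KO epithelial sums (log2 fold change -2.04, SE 0.18, edgeR adjusted p = 0.00284). No other member passed there, so that 0 of 8 rose and 1 of 8 fell, where 6.92% of genes passed (2.59% higher and 4.33% lower); 2 of 8 had groups that did not overlap, against 43.4% of genes. By DESeq2 1 of 8 passed too. Mixed cells held 87.2 to 96.9% of these Thbd UMIs although they were 18.0 to 31.8% of the epithelial cells. With mixed cells left out, epithelial Thbd was 2.23 and 2.2 CPM against 1.19, 1.19 and 2.19 CPM, and the call was lost (log2 fold change -0.62, edgeR adjusted p = 0.572).

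Tfpi in the immune sums was 6.09 and 8.13 CPM in the Het and 13, 13.2 and 13.9 CPM in the KO libraries (log2 fold change 0.88, SE 0.14, edgeR adjusted p = 0.00939). With mixed cells left out it kept its size (0.87, adjusted p = 0.0109 by edgeR). Anxa2 in the immune sums was 771 and 781 CPM in the Het and 541, 580 and 635 CPM in the KO libraries (log2 fold change -0.44, SE 0.07, edgeR adjusted p = 0.0104). These 2 were the calls among 7 members tested in the immune sums, where 7.65% of genes passed (3.29% higher and 4.36% lower), and 4 of the 7 had groups that did not overlap, against 41.5%. Both calls were lost with sex as a covariate (edgeR adjusted p = 0.0826 and 0.0832) and without Het1 (0.101 and 0.133), and that of Anxa2 also without Het2 (0.150). The values kept their sign in all 17 alternatives, at 0.69 to 1.10 for Tfpi and -0.79 to -0.36 for Anxa2; with sex as a covariate they were 0.91 and -0.36. Among the male libraries alone both passed (edgeR adjusted p = 0.000137 and 5.83e-06), with KO3 the only KO library and assumed to vary as the Het libraries do.

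In the mesenchymal sums 0 of 8 members passed with edgeR, and 0 with DESeq2, where 0.179% of genes passed (0.0357% higher and 0.143% lower). By edgeR 5 of 8 had an unadjusted p under 0.05, beside 1937 of 13989 genes. The groups did not overlap for 7 of 8, against 31.5% of genes. Thbd and Tfpi had the same sign as in endothelium: Thbd (68.1 and 87.6 against 52.9, 48.9 and 61.7 CPM; log2 fold change -0.49, edgeR adjusted p = 0.183) and Tfpi (61.0 and 72.0 against 89.2, 83.8 and 88.1 CPM; 0.41, adjusted p = 0.150). Vwf had the opposite sign to endothelium (2.12 and 3.18 against 4.13, 6.93 and 4.80 CPM; log2 fold change 0.97, edgeR adjusted p = 0.262), with no overlap. Mixed cells held 56.3 to 92.1% of these Vwf UMIs. Without them Vwf was 1.34 and 1.42 CPM in the Het and 1.12, 0.836 and 1.225 CPM in the KO libraries. Red-cell barcodes had 0.918 to 2.04 CPM of Vwf. These values are thus near the level of free RNA, and no direction is read from them. Mesothelial-like cells had 75.1 and 67.5 CPM of Tfpi in the Het and 123, 136 and 134 CPM in the KO libraries, with no overlap. For F3 the epithelial sums had 138 and 147 CPM in the Het and 173, 126 and 128 CPM in the KO libraries (log2 fold change -0.01, SE 0.16, edgeR adjusted p = 0.985). Its epithelial types went opposite ways, with no test per type. AT1-like cells were lower in the KO libraries, as given above, and so were ciliated-like cells (173 and 166 against 152, 114 and 80.9 CPM), while AT2-like cells were higher (95.8 and 111 against 172, 118 and 128 CPM). Club-like cells, the secretory cells of the airways, overlapped (207 and 246 against 301, 371 and 138 CPM). Mixed cells held 40.2 to 66.4% of the epithelial F3 UMIs. No share over all genes was counted per type, so nothing is read from these orders.

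Whether a member's Het against KO difference itself differed between these 3 lineages was tested with edgeR over 16624 genes, as 24 terms. Of these 5 passed: Thbd and Tfpi for mesenchymal against epithelial sums and for immune against epithelial sums, and Vwf for mesenchymal against epithelial sums. Of all genes 4.01% passed for mesenchymal against epithelial, 4.32% for immune against epithelial and 1.43% for immune against mesenchymal sums. With mixed cells left out 0 of the 24 passed by edgeR.

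Genes around the members were read from 7 lists of 63 genes, which held coagulation factors, anticoagulants, platelet inhibitors, the plasminogen system, thrombin receptors, genes of Vwf and factor VIII handling, and transcription factors known to regulate Thbd. These lists were chosen with earlier results of these data known, so the p-values below are not free of that choice. In the endothelial sums 38 listed genes were tested, and 3 rose and 3 fell, against 1.67% and 4.12% of all genes. Stab2, a scavenger receptor known to clear Vwf and factor VIII, rose (8.82 and 13.7 against 37.8, 33.5 and 29.9 CPM; log2 fold change 1.62, SE 0.21, edgeR adjusted p = 0.00267). F2r, the main thrombin receptor, rose from 37.2 and 45.8 to 72.7, 55.6 and 79.1 CPM (0.76, edgeR adjusted p = 0.0290). Serpine2, an inhibitor of thrombin and of plasminogen activators, rose from 30.6 and 35.2 to 99.2, 44.0 and 77.9 CPM (1.18, edgeR adjusted p = 0.0475). The genes that fell were the transcription factor Ets1 (log2 fold change -0.64, edgeR adjusted p = 0.00314), the adhesion molecule Pecam1 (-0.36, adjusted p = 0.0260) and the urokinase receptor Plaur (-0.64, adjusted p = 0.0366). Without the aerocyte-like cells 3 listed genes passed, and with sex as a covariate 1 did, Stab2. Without Het1, Het2, KO2 or KO3 the count was 2, 3, 11 and 2. Over 20 alternatives Stab2 passed in 20 and Ets1 in 18, F2r and Plaur in 14, Pecam1 in 13 and Serpine2 in 9 (highest edgeR adjusted p = 0.278). All 6 kept their sign.

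In the general capillary-like sums, 28 listed genes were tested, and 2 rose and 3 fell, against 1.62% and 2.56% of all genes. The 3 that fell were transcription factors of the Thbd list, of which all 4 were tested. Klf2, the shear stress factor known to induce Thbd, fell from 416 and 535 to 265, 231 and 265 CPM (log2 fold change -0.88, SE 0.12, edgeR adjusted p = 0.000192). Klf4 fell from 247 and 283 to 188, 137 and 144 CPM (-0.74, SE 0.13, edgeR adjusted p = 0.00251). Ets1 fell from 512 and 600 to 420, 355 and 417 CPM (-0.46, SE 0.11, edgeR adjusted p = 0.0264). Stab2 rose (1.83, edgeR adjusted p = 9.72e-05) and so did F2r (0.81, edgeR adjusted p = 0.0220). Stab2 is also among the leading genes of the sub-cluster that held most KO cells. Over 17 alternatives, Klf2 and Stab2 passed in 16, Klf4 in 15, and Ets1 and F2r in 11. All kept their sign. Without Het1 and without Het2 the edgeR adjusted p was 0.0504 and 0.118 for Klf4, 0.164 and 0.391 for Ets1, and 0.183 and 0.283 for F2r, and without KO3 it was 0.0555 for Ets1 and 0.0965 for F2r. Without KO2 it was 0.0777 for Ets1. Fits without Het1 or Het2 leave 1 Het library, and those of male libraries alone leave 1 KO library, so the spread comes from the other group alone. Of the listed genes 2 passed without Het1, 2 without Het2 and 3 without KO3. In the whole endothelial sums 1 of the 4 factors passed, Ets1, so neither Klf2 nor Klf4 did (Klf4 -0.06, edgeR adjusted p = 0.923). Of the same 4 factors, 3 fell in the epithelial sums, 2 rose in the immune sums and 0 passed in the mesenchymal sums.

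**Figure D5:**
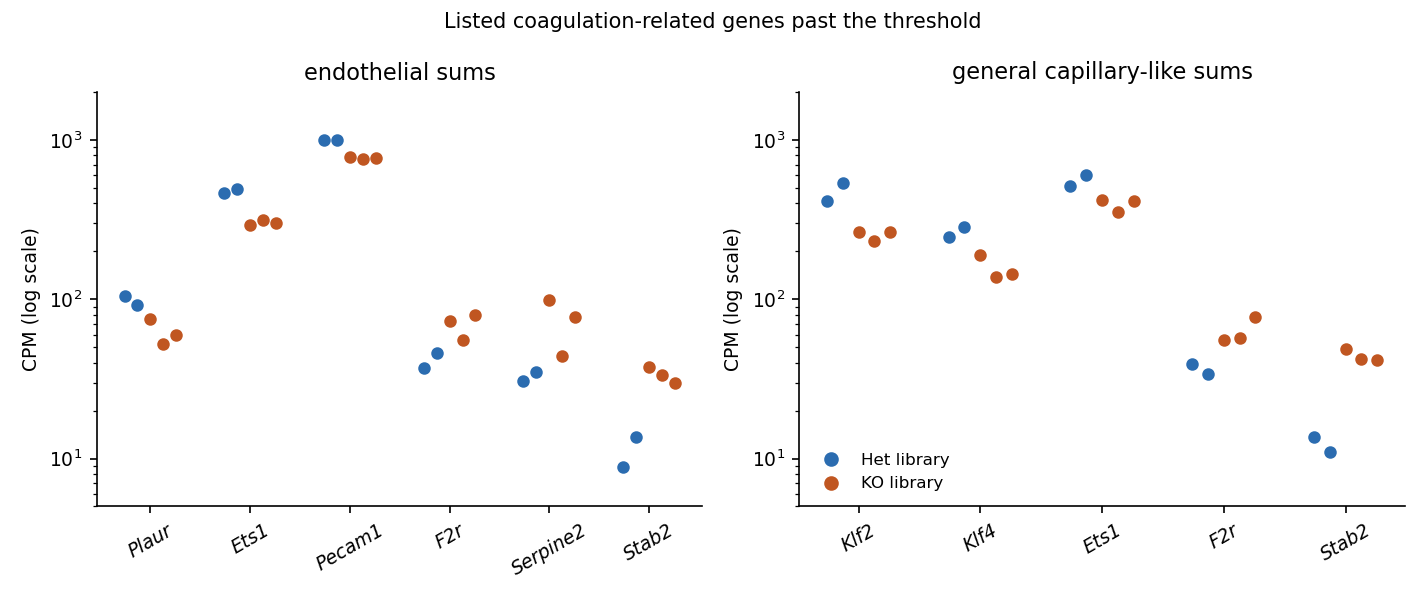
Level in CPM (log axis) of the listed genes past the threshold, in the endothelial and the general capillary-like sums, 1 point per library (Het blue, KO orange). Stab2 is the gene with the widest gap in both panels, and Klf2, Klf4 and Ets1 lie lower in the KO points of the capillary panel.

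The same lists were counted in the other lineages, where the shares over all genes are those given above. In the epithelial sums 0 rose and 8 fell of 44 tested with edgeR (DESeq2: 0 and 9), against 2.59% and 4.33% of all genes. There 17 had an unadjusted edgeR p under 0.05, beside 3783 of 15019 genes. In the immune sums 9 rose and 6 fell of 40, against 3.29% and 4.36%. In the mesenchymal sums 0 of 38 passed with edgeR (DESeq2: 2), against 0.179%. There 15 had an unadjusted edgeR p under 0.05, beside 1937 of 13989 genes. With mixed cells left out 2 listed genes passed in the epithelial sums, and without Het2 0 did (12 with an unadjusted edgeR p under 0.05). With sex as a covariate 0 passed in the immune sums (17 unadjusted). No share over all genes is given beside the unadjusted counts of these alternatives, so nothing is read from them. Without Het1 and without Het2 the immune count was 1 and 2. The differences between lineages were not tested for these lists.

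Over the 23 sums of 1 endothelial type in 1 library with at least 20 cells, the genes whose log2(CPM + 1) followed each member most closely were as follows, given as a description over sums that share libraries and depth. Thbd went with Il4ra (Pearson r 0.94) and Ramp2 (0.93). Procr went with Ltbp1 (0.94) and Zfp36l1 (0.93), and Vwf with Adgrg6 (0.95) and with Entpd1 (0.93), the endothelial enzyme that breaks down ADP. Tfpi (Gsap 0.88, Cnrip1 0.86) and Anxa2 (Lrg1 0.86, Hsd3b7 0.85) had looser partners. Those of Plat (Cttn 0.76, Sri 0.75), F8 (Lck 0.77, Cd302 0.76) and F3 (Sos1 0.71, Zfp511 0.69) rest on few UMIs. Among the members themselves Procr and Vwf, both venous, had an r of 0.71, while Thbd and Vwf had 0.0082. Aerocyte-like sums came from Het libraries only and lymphatic-like sums from KO libraries only, so these correlations mix type with genotype.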

How the data were processed

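The authors deposited UMI counts in whole numbers for each gene and each barcode of 3′ droplet libraries, processed with Cell Ranger 4.0.0 on mm10, per the submitters' processing notes; the annotation they used is not given in the sources used here. Barcodes were used as cells from 500 detected genes upward, if mitochondrial UMIs did not exceed 15%. Doublets were scored against simulated ones (2 per cell) and removed at 0.8% per 1000 cells. This removed 78 to 186 per library. Pairs of libraries shared 0 to 7 cell barcodes.

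Cells were scaled to 10000 UMIs, logged and clustered with scanpy 1.11.5 (30 components, 15 neighbours, Leiden resolution 1); endothelial cells were clustered again, with the members and listed genes left out of the variable genes. A cluster took a name from at least 3 markers; details of this rule were set after clusters were seen, and names are rebuilt, not the authors'. Endothelial sub-clusters led by platelet, smooth muscle or fibroblast genes (10 to 22 cells per library) were left out.

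UMIs were summed per library and lineage and tested with edgeR 4.0.16 (quasi-likelihood, TMM, filterByExpr, Benjamini-Hochberg over all genes, threshold 0.05, two-sided); DESeq2 1.42.0 was an alternative, and libraries were left out in turn. On simulated counts with 200 genes changed by 1 log2 unit, 58% were recovered in the endothelial sums (11518 genes). Cells are not replicates. The 2 against 3 embryos limit the precision, and Poisson intervals cover counting error only. Replicate numbers did not pair samples. Members and lists were chosen with earlier results of these data known. Named listed genes passed the threshold in endothelial or general capillary-like sums, with groups that did not overlap and at least 10 CPM in the higher group; 2 genes per member were named by correlation. Promoters of Thbd, Plat and Vwf were not used here.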

Additional observations from a re-analysis of the deposited data

Results flagged for a closer look

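Het against KO differences of 3 members differed between lineages by edgeR's test of the difference itself, over all 16624 genes (4.01% of genes passed for mesenchymal against epithelial sums, 4.32% for immune against epithelial sums). For Thbd the log2 fold change was higher by 1.59 in the mesenchymal (edgeR adjusted p = 0.000318) and by 1.85 in the immune sums (adjusted p = 0.000129) than in the epithelial sums. For Tfpi it was higher by 0.91 in the mesenchymal (edgeR adjusted p = 0.0161) and by 1.39 in the immune sums (adjusted p = 0.00251). For Vwf it was higher by 1.57 in the mesenchymal sums (edgeR adjusted p = 0.0362). With mixed cells left out, none of these 5 terms passed by edgeR: the values were 0.17 and 0.44 for Thbd, -0.37 and 0.18 for Tfpi and -0.20 for Vwf.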

How the results depend on the processing

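Over the alternatives tried, Thbd kept its sign in the endothelial (-1.79 to -1.41 on the log2 scale) and general capillary-like sums (-1.50 to -1.19). Counts of genes past the threshold moved more. In the endothelial sums (666) they were 1591 without a low-count filter, 192 with sex as a covariate, 1074 among male libraries alone, 278 without aerocyte-like cells and 159 to 994 with a library left out. For the listed genes there (6) they were 13, 1, 11, 3 and 2 to 11 in the same order, and for the members there (1) 3 without the filter, 2 among male libraries and 1 to 2 with a library left out. In the general capillary-like sums (394) they were 245 with DESeq2, 624 without the filter, 98 with sex, 60 among males and 72 to 871 with a library left out. In the epithelial sums (1040) they were 1916 without the filter, 1874 among males, 206 without mixed cells and 76 to 1167 with a library left out. In the mesenchymal sums (25) they were 197 with DESeq2, 403 without the filter, 0 by edgeR with sex and 0 among males, 10 with doublets kept, 3 with the stricter cell filter, 2 at Leiden resolution 2, 132 without mixed cells and 2 to 162 with a library left out. In the immune sums (1007) they were 1632 without the filter, 127 with sex, 1773 among males, 656 with the stricter cell filter and 147 to 1319 with a library left out. Of the lineage terms (5), 0 passed by edgeR without mixed cells and 3 to 4 with a library left out. With a replicate block, though numbers did not pair the samples (r of -0.215 to 0.129), the counts fell to 276 endothelial genes, 2 listed genes there and 13 mesenchymal genes, and rose to 525 general capillary-like, 1509 epithelial and 1390 immune genes and to 13 listed genes in epithelium (8).

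In the endothelial sums the sign turned for Procr in 7 of 20 alternatives (-0.21 to 0.38), and for Plat (-0.52 to 0.11) and Anxa2 (-0.29 to 0.03) with sex as a covariate and among males; in the general capillary-like sums it turned for Vwf in 3 of 17 (-0.25 to 0.57). In the other lineages it turned for members that had not passed. Procr in epithelium was -0.76 with sex and among males, and -0.53 to 0.92 with a library left out; in mesenchyme it was -0.10 without mixed cells, and in immune cells 0.10 with the replicate block, 0.11 without mixed cells and -0.35 to 0.10 with a library left out. F3 in epithelium was 0.042 with the replicate block, 0.035 with doublets kept, 0.0038 with the stricter cell filter, 0.0026 at Leiden resolution 2 and -0.20 to 0.10 with a library left out. Plat with a library left out was -0.79 to 1.03 in epithelium, -0.49 to 0.46 in mesenchyme (0.11 without mixed cells) and -0.45 to 0.48 in immune cells, where it was -0.59 with sex and among males and -0.075 at Leiden resolution 2. Vwf was 0.00043 in epithelium without mixed cells and -0.56 in mesenchyme with the stricter cell filter. The cause of these shifts was not tested. F8, Plat and F3 in endothelium were limited by few UMIs, and the KO aerocyte-like and Het lymphatic-like cells were too few for a level per library.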
